A study of Mus musculus with 3 samples.

Results

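Polycomb repressive complex 2 (PRC2) was examined through 10 genes, chosen by symbol: the catalytic subunits Ezh1 and Ezh2, the core subunits Suz12, Eed and Rbbp7, and the accessory subunits Jarid2, Mtf2, Phf1, Phf19 and Aebp2. Gene names came from the probes of the authors' processed table, and 8 of the 10 genes had a named probe there, out of 9678 genes in all. Jarid2 and Phf1 had none and are not analysed here: a gene without a named probe cannot be told from a gene at background on every array. The 8 genes were read by 17 probes, and the level of a gene is that of its probe with the highest mean.

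The measurements are Illumina BeadArray intensities of total RNA from OS25, an established line of mouse embryonic stem (ES) cells, in 3 biological replicates with 1 array each. All 3 belong to a single group, labelled undifferentiated ES cells, and no treated or differentiated group was compared with it. The cells were kept in Glasgow medium with 10% foetal calf serum, human leukaemia inhibitory factor at 1000 units/mL and hygromycin at 0.1 mg/mL, and the labels name no feeder layer. The labels do not say whether the replicates were separate cultures, so the spread given here is that between these 3 arrays.

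PRC2 places methyl groups on a lysine of histone H3 (H3K27), and its trimethylated form marks silent developmental genes in ES cells. EZH2 or EZH1 carries the methyltransferase site and is active only with EED, which binds the mark, and SUZ12, which holds the complex together. RBBP7 and its paralog RBBP4 are histone-binding subunits shared with other chromatin complexes. MTF2, PHF1 and PHF19 are alternative Polycomb-like subunits of the form called PRC2.1, and JARID2 and AEBP2 define the form called PRC2.2.

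On every array the probe of each gene was set against negative control beads, which gives its detection p, and a gene was called detected where a probe of it had a detection p under 0.01 on all 3 arrays. The lowest intensities that passed were 99.2, 96.6 and 92.6 on replicates 1, 2 and 3. Levels are background-corrected, quantile-normalised log2 intensities, so that 1 unit is a 2-fold difference. Levels of different probes depend on how each probe hybridises, so no gene's level is ranked against another's.

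The label was checked against marker genes, beside 82.2% of all named genes that were detected on all 3 arrays. Of 20 ES cell markers, 5 had a named probe and 3 were detected. These were Klf4 at 7.47 ± 0.87, Klf2 at 7.64 ± 0.09 and Tbx3 at 8.06 ± 0.24 (SD, n = 3 each). Zfp42 (detection p of 0.00107, 0.0374 and 0.0203) and Tfcp2l1 (0.0203, 0.248 and 0.512) were not detected on all 3 arrays. Pou5f1, Nanog, Sox2 and Esrrb were among the 15 without a named probe, so these defining markers have no value here. Of 16 fibroblast markers, 13 were named and 11 of them detected (84.6%, close to the share of all genes). They include the collagen genes Col1a1 (11.90 ± 0.12, n = 3) and Col1a2 (6.93 ± 0.60, n = 3). The other detected ones had means of 8.71 (Thy1), 6.68 (Pdgfrb), 11.44 (Loxl1), 13.01 (Vim) and 7.8 (S100a4). Twist1 had a mean of 8.68, Prrx1 of 8.51, Fn1 of 12.43 and Acta2 of 14.08. Col3a1 (detection p of 0, 0.00427 and 0.0256) and Dcn (0, 0 and 0.0128) passed on the first pair of arrays and not on replicate 3. Dcn stood at 12.28, 6.77 and 5.42 on replicates 1, 2 and 3, far highest on replicate 1. Markers went both ways there, and Thy1, at 6.81, 9.85 and 9.49, was far lowest on replicate 1. Of 10 endoderm markers, 5 had a named probe and 3 were detected, with Gata6 at 10.11 ± 0.61 (n = 3), while Gata4 and Sox7 were not detected on all 3 arrays. With the defining markers unread, and Zfp42 and Tfcp2l1 not detected on all 3 arrays, the check did not bear out the label. Whether the levels of the fibroblast markers are usual for undifferentiated ES cells was not tested. The samples are therefore named by their label alone, as the arrays labelled undifferentiated ES cells. Replicate 1 stood apart from the others: across the 7955 detected genes, whose values are no independent replicates, replicates 2 and 3 correlated at 0.991 (Pearson's r), and replicate 1 at 0.944 with replicate 2 and 0.947 with replicate 3. Ranges are therefore also given for replicates 2 and 3 alone.

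Of the 8 PRC2 genes with a named probe, 7 were detected on all 3 arrays (87.5%): Ezh2, Suz12, Eed, Rbbp7, Mtf2, Phf19 and Aebp2. Among all genes with a named probe the share was 82.2%, so the count of PRC2 genes lies near the background and is no result about them. Names were available for the 17754 probes of the authors' processed table alone, most of which were above background, and any count of detected genes among named ones starts from that high share. Ezh1 was the gene that did not pass. The same 7 of 8 held at a detection p under 0.05 and under 0.001, the latter leaving only probes with a detection p of 0 on each array.

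The stretches upstream of the annotated starts are shown for Ezh1, the gene not detected on all 3 arrays, and for the detected core subunits Suz12, Eed and Rbbp7. Those of Ezh2 and Phf19 are described but not printed, since 240 and 250 of their 250 bases lie inside the gene's annotated span, which reaches farther upstream than the start used. Each line gives the 250 bases before the start, read 5′ to 3′ on the gene's own strand, from RefSeq on GRCm38.p6. Capitals mark letters that match the words searched.
Ezh1: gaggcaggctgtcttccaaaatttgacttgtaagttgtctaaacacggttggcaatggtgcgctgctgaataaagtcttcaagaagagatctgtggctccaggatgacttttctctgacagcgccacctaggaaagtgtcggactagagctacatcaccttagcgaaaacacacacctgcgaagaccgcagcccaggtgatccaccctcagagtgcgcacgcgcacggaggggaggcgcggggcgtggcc
Suz12: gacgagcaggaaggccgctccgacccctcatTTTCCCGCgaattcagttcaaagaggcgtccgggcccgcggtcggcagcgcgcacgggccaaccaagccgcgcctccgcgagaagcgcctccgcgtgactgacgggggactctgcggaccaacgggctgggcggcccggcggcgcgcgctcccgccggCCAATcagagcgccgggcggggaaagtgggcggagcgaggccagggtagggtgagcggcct
Eed: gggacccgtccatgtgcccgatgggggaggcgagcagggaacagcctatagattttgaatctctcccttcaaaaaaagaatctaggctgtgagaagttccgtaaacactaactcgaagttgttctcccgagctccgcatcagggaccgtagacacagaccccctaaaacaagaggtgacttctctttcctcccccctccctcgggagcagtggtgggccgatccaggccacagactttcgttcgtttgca
Rbbp7: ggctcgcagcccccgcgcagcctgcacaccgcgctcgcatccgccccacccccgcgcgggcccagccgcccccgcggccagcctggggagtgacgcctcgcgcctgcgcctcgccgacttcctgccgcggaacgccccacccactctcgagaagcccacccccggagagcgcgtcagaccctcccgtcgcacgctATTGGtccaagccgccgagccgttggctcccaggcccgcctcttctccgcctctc
The stretches lie at chr11:101226464-101226713 on the minus strand (Ezh1), chr11:79992856-79993105 on the plus strand (Suz12), chr7:89980977-89981226 on the minus strand (Eed) and chrX:162760122-162760371 on the plus strand (Rbbp7).

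All 10 PRC2 genes had a promoter entry, with 14 windows in all since Jarid2, Mtf2 and Aebp2 have several starts, and each window runs from 250 bases before to 50 bases after a start. The words searched on both strands were TTTCCCGC, TTTCGCGC, TTTGCCGC and TTTGGCGC for E2F, whose factors switch on genes of the cell division cycle, CCAAT for the CCAAT box and AAGATGGC for YY1. An E2F word was found in 3 of the 14 windows, against 2.26% of 32851 windows of all genes. It began 219 bases before the start in Suz12, 208 bases before it in Phf19 and at base 4 after it in Ezh2. The YY1 word began 192 bases before the start of Phf19, the only window of the 14 to hold it, against 2.75% of all windows. CCAAT was found in 8 of the 14 windows (37.4% of all windows), with 3 matches in Ezh2, at 90, 64 and 11 bases before the start used. Suz12 held it 61 bases before the start, Eed at base 26 after it, and Rbbp7 55 bases before it and again across the start itself, which is not capitalised. The Ezh1 window held none of these words. Both catalytic genes have CpG-containing windows, with 31 CpG pairs in Ezh2 and 23 in Ezh1, while the median of all windows was 7. The matches describe letters and not binding.

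The catalytic subunit Ezh2 stood at 10.10 on replicate 1, 9.84 on replicate 2 and 9.81 on replicate 3 (9.92 ± 0.16, SD, n = 3). Its unprocessed intensity was 1357, 940 and 812 on those arrays, far over the lowest intensity that passed. A dimmer probe of Ezh2 stood at 5.87, 5.36 and 5.93, and its detection p on replicate 2 was 0.00962, just inside the threshold. Replicate 1 was the highest array by the brighter probe and replicate 3 by the dimmer, so the order of the arrays differed between the 2 probes.

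Ezh1, whose product is a methyltransferase of weaker activity and is known for its expression in resting cells, was read by 1 probe. Its intensities were 104, 87.0 and 82.8 on replicates 1, 2 and 3, with detection p of 0.00534, 0.0694 and 0.0588. It was above background on replicate 1 alone, where it lay a few units over the lowest passing intensity, and its normalised values of 5.36, 4.96 and 5.04 on the 3 arrays therefore describe a signal at the detection limit. The difference between Ezh1 and Ezh2 is one of detection and not a ratio of transcripts, since the probes differ.

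Suz12, which the complex needs for its assembly and stability, had the smallest range of the detected PRC2 genes, though not without normalisation between arrays (0.25, beside 0.22 for Rbbp7) or without replicate 2 (0.11, beside 0.05 for Eed). It stood at 11.44, 11.55 and 11.55 on replicates 1, 2 and 3 (11.51 ± 0.06, n = 3), a range of 0.10. Eed, the subunit that binds trimethylated H3K27, stood at 6.55, 6.76 and 6.60 (6.64 ± 0.11, n = 3). Its intensity of 170, 160 and 135 was closer to the detection limit, and its detection p was 0 on all 3 arrays. Each of these genes was read by 1 probe.

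Rbbp7, the histone-binding subunit encoded on the X chromosome, was read by 4 probes, all detected on all 3 arrays. The brightest stood at 10.45, 10.78 and 11.09 on replicates 1, 2 and 3 (10.77 ± 0.32, n = 3). Replicate 1 was the lowest array by all 4 probes, with differences from the mean of replicates 2 and 3 of −0.75 to −0.49. Rbbp4, the autosomal paralog, stood at 8.74, 9.04 and 9.19 (8.99 ± 0.23, n = 3), also lowest on replicate 1. Whether probes of these similar genes bind each other's transcripts was not tested.

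Of the Polycomb-like subunits, Mtf2 and Phf19 were detected. Mtf2, which recruits PRC2 to CpG islands, stood at 10.03, 9.58 and 9.83 on replicates 1, 2 and 3 by its brightest probe (9.82 ± 0.23, n = 3). Its other 2 probes stood at 7.24, 6.82 and 7.02, and at 7.27, 7.07 and 7.10. All 3 probes were highest on replicate 1 and lowest on replicate 2, so the probes of Mtf2 gave the arrays the same high and low. Phf19, which binds trimethylated H3K36 through its Tudor domain, stood at 6.54, 6.28 and 6.41 by its only probe (6.41 ± 0.13, n = 3), and its intensity was 170, 131 and 124.

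**Figure D1:**
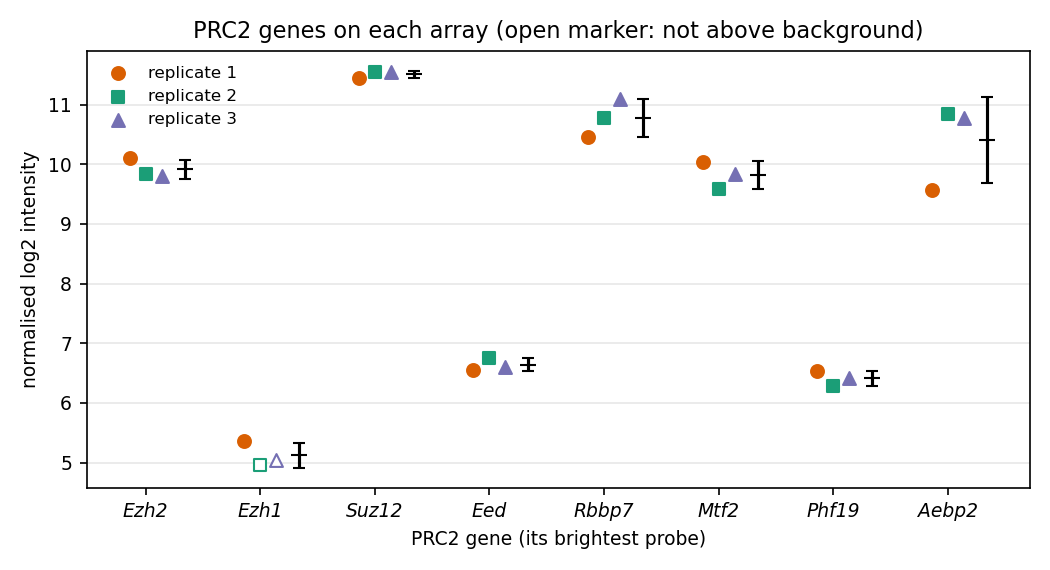
Normalised log2 intensity (y axis) of the 8 PRC2 genes with a named probe (x axis), by the brightest probe of each, on replicates 1, 2 and 3. Coloured markers are single arrays, open ones not above background, and the black bar is the mean ± SD (n = 3); the arrays of Suz12 lie within 0.10, those of Aebp2 span 1.28, and Ezh1 is filled on replicate 1 alone. Heights of different genes come from different probes and are not ranked.

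Aebp2, the zinc finger subunit of PRC2.2, was the PRC2 gene that differed most between arrays. By its brightest probe it stood at 9.57 on replicate 1, 10.85 on replicate 2 and 10.78 on replicate 3 (10.40 ± 0.72, n = 3), so that replicate 1 lay apart and replicates 2 and 3 differed by 0.07. Replicate 1 was 1.24 below the mean of the others (9.57 against 10.81), a 2.36-fold lower level. Already in the unprocessed intensities it was the lowest array, at 964 against 1852 and 1580, although replicate 1 had the highest median intensity of the 3 arrays (80.7 against 79.8 and 74.9).

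The other probes of Aebp2 had the same low array. Of these, 1 stood at 6.97, 8.43 and 8.33 on replicates 1, 2 and 3, and another at 6.39, 7.25 and 7.10. The dimmest, at 4.76, 5.24 and 5.30, was not detected on any array (detection p of 0.105, 0.0150 and 0.0192). By the 3 detected probes replicate 1 was the lowest array, with differences from the mean of the others of −1.41 to −0.79. The probes read the same RNA samples, so they check the reading of each array and are no further replicates.

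**Figure D2:**
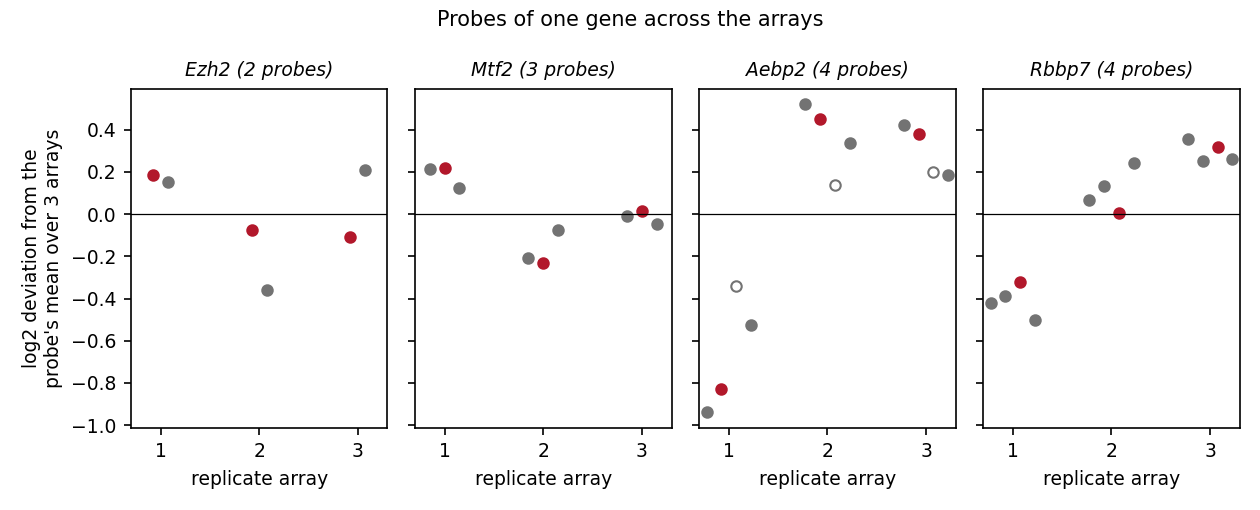
Log2 deviation of each probe from its own mean over the 3 arrays (y axis) on each replicate (x axis) for the 4 PRC2 genes with several probes. Red is the brightest probe, grey the others, and an open marker a probe not detected on all 3 arrays; the 3 detected probes of Aebp2 and all 4 of Rbbp7 are lowest on replicate 1, and the 3 of Mtf2 are highest there.

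Ranges between arrays over the 7 detected PRC2 genes ran from 0.10 to 1.28 log2 units, with a median of 0.29, beside a median of 0.41 over all 7955 detected genes. A range over 1 unit was found in 1 of the 7, Aebp2, and in 10.1% of all detected genes. In 5 of the 7, replicate 1 lay farthest from the middle of the 3 values, beside 63.7% of all. It was the highest array for Ezh2, Mtf2 and Phf19 (3 of 7; 43.3% of all) and the lowest for Suz12, Eed, Rbbp7 and Aebp2 (4 of 7; 43.4% of all). These shares are close to those of other genes, and an array difference of 1 replicate has no test. Aebp2 was also the only one of the 7 with replicate 1 over 1 unit below the mean of the others, as 4.46% of all detected genes were. None of the 7 was over 1 unit above it, as 3.26% of all detected genes were.

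Between replicates 2 and 3 alone, the detected PRC2 genes differed by at most 0.31 (Rbbp7), with a median difference of 0.13 beside 0.14 over all detected genes, and Aebp2 differed by 0.07. The spread of Aebp2 therefore rests on replicate 1. The sign of the replicate 1 difference was the same under 6 ways of processing for Ezh2, Mtf2, Phf19, Rbbp7 and Aebp2, where it ran from −1.24 to −0.87. Without normalisation between arrays the difference turned to 0.17 in Suz12 and 0.30 in Eed. Under that setting the median difference over all detected genes was 0.39. Relative to that median Suz12 was at −0.22 and Eed at −0.09.

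**Figure D3:**
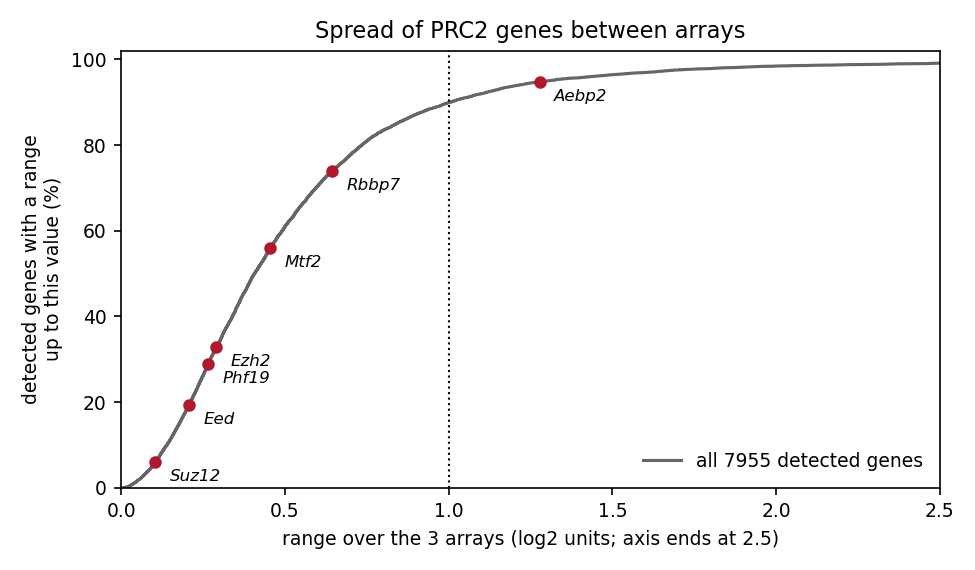
Share of the 7955 detected genes (y axis, %) whose range over the 3 arrays is at or below the value on the x axis (log2 units), as a grey curve, with the 7 detected PRC2 genes as red points. Aebp2 (1.28) is the only one to the right of the dotted line at 1 unit, and Suz12 (0.10) lies lowest.

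The other Polycomb genes were read from lists of further PRC2 partners, PRC1 subunits, CBX readers, H3K27 demethylases and the PR-DUB deubiquitinase complex, 40 genes in all. Of these, 35 had a named probe and all 35 were detected (82.2% of all named genes were). None of the 35 spanned over 1 log2 unit between arrays, beside 10.1% of all detected genes. That count depends on the threshold. Phc1 (0.98), Phc3 and Cbx8 (0.96 each), Pcgf5 (0.92) and Epop (0.91) lay just under it. Replicate 1 was the highest array for 17 of the 35 (43.3% of all detected genes) and the lowest for 16 (43.4% of all). Between replicates 2 and 3 alone they differed by at most 0.34. Among PRC2 partners, 6 of 7 had a named probe and were detected. Epop, a PRC2.1 subunit that also binds elongin, stood at 8.77, 7.98 and 7.86 on replicates 1, 2 and 3 (8.20 ± 0.50, n = 3). Lcor, whose locus also encodes the PRC2.1 subunit PALI1, stood at 6.22, 6.75 and 6.96 (6.64 ± 0.38, n = 3), and which of these products its probe reads was not tested. Epop was highest and Lcor lowest on replicate 1.

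PRC1 places ubiquitin on histone H2A, and its CBX subunits bind the mark made by PRC2. Of its core and PCGF subunits, 16 of 17 were named and detected, with the ubiquitin ligase gene Ring1 at 8.27 ± 0.44, the PCGF genes Bmi1 at 7.36 ± 0.19 and Pcgf1 at 8.69 ± 0.02 (n = 3 each). Of 5 CBX genes, 4 had a named probe and were detected, with Cbx2 at 7.06 ± 0.39, Cbx6 at 9.54 ± 0.26 and Cbx7 at 6.22 ± 0.16 (n = 3 each). All 3 genes of the H3K27 demethylase family were detected: Kdm6a at 8.76 ± 0.33, Kdm6b at 8.25 ± 0.29 and the Y-linked Uty at 5.85 ± 0.20 (n = 3 each). In the PR-DUB complex, which removes ubiquitin from histone H2A, 6 of 8 had a named probe and were detected, with the catalytic gene Bap1 at 9.33 ± 0.29, Asxl1 at 8.88 ± 0.26 and Foxk1 at 6.58 ± 0.17 (n = 3 each).

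Genes that carry the PRC2 mark in ES cells were also read, from a list of 36 Hox, lineage and cell cycle inhibitor genes. Of 19 with a named probe, 17 were detected (89.5%, beside 82.2% of all genes), among them Hoxa5 (8.61 ± 0.43), Hoxa7 (8.81 ± 0.04) and Hoxa9 (5.69 ± 0.31, n = 3 each). The detected Hox genes not named below had means of 5.55 (Hoxa13), 6.95 (Hoxb4), 10.34 (Hoxb7), 7.9 (Hoxb9) and 10.38 (Hoxc6). The cell cycle inhibitor genes Cdkn2a and Cdkn2b had means of 9.96 and 10.22, and Tbx5 and Wnt5a of 5.63 and 9.36. Hoxd13 (detection p of 0.153, 0.00962 and 0.00641) and Gata4 (0, 0.395 and 0.0321) were not detected on all 3 arrays, and the other 17 genes had no named probe. Replicate 1 was the highest array for 5 of the 17 (43.3% of all detected genes) and the lowest for 10 (43.4% of all). The median difference of replicate 1 from the mean of the others was −0.30. A range over 1 unit was found in 4 of the 17 (10.1% of all detected genes) and, between replicates 2 and 3 alone, in none, with a largest difference of 0.56. The 4 are named after their values were seen: on replicates 1, 2 and 3 Bmp4 stood at 11.51, 8.12 and 8.14, and Gata6 at 10.81, 9.78 and 9.74. Hoxd8 stood at 6.46, 8.12 and 8.03, and Hoxd9 at 6.81, 8.03 and 8.01. Bmp4 and Gata6 were highest and these Hoxd genes lowest on replicate 1, whereas Hoxd10, at 6.62, 6.62 and 6.67, differed little. Histone methylation was not read by these arrays.

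**Figure D4:**
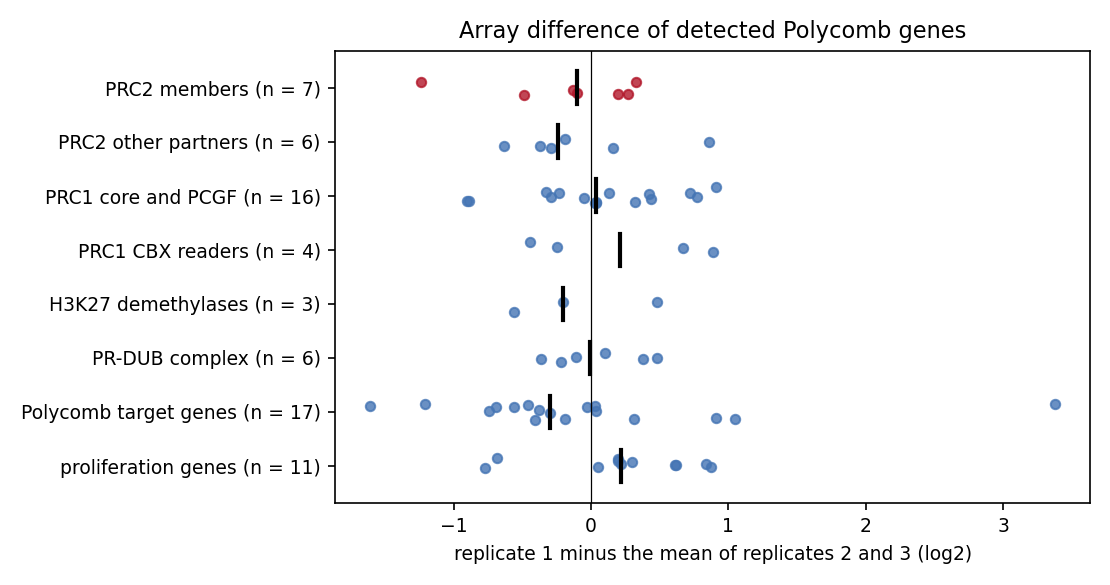
Level on replicate 1 minus the mean of replicates 2 and 3 (x axis, log2 units) for the detected genes of 8 lists (y axis), with each gene a point and the list's median a black bar. The 7 PRC2 genes run from −1.24 (Aebp2) to 0.33 (Mtf2) around a median of −0.10, and the Polycomb target genes run from −1.61 to 3.38.

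Lists of other genes were set beside these array differences. Transcription of Ezh2 and Eed is known to follow cell division, so proliferation genes were read. Of 16, 12 had a named probe and 11 were detected, with Top2a at 11.55, 10.74 and 11.14 and Mcm2 at 10.84, 10.52 and 10.58 on replicates 1, 2 and 3, while Pcna was above background on replicates 1 and 2 alone. Replicate 1 was the highest array for 8 of the 11 (43.3% of all detected genes) and the lowest for 2 (43.4% of all). The median difference of replicate 1 from the mean of the others was 0.22. That difference was 0.27 in Ezh2 and −0.13 in Eed, so these PRC2 genes went opposite ways. A link of either gene to the proliferation genes was not tested.

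The marker lists held genes that went both ways on replicate 1. Over all detected genes, replicate 1 was the highest array for 43.3% and the lowest for 43.4%. Of the 11 detected fibroblast markers, replicate 1 was highest for 4 and lowest for 5, with a median difference of −0.05. A range over 1 unit was found in 4 of the 11 (10.1% of all detected genes). Replicate 1 lay over 1 unit below the mean of the others for 3 of the 11 (4.46% of all). It lay over 1 unit above that mean for 0 (3.26% of all). Of the 3 detected ES cell markers it was highest for 1 and lowest for 1, with a median of 0.04. Of the 3 detected endoderm markers it was highest for 2 and lowest for 1, with a median of 0.71. The summed linear levels, which the brightest probes dominate, were 33900, 48800 and 45500 on replicates 1, 2 and 3 for the 13 named fibroblast markers. They were 692, 743 and 765 for the 5 named ES cell markers, 6250, 5800 and 5210 for the 5 named endoderm markers, and 23300, 16700 and 19400 for the 12 named proliferation genes. The part of these genes in the values of Aebp2, Rbbp7, Ezh2 and Mtf2 was not tested. In bulk RNA, fewer cells of a type and less RNA per cell cannot be told apart.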

How the data were processed

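The deposited unprocessed table gives, per the file headers, the intensity of each of 45281 probes and its detection p-value on 3 arrays. Per the labels' protocols, TRIzol was used for extraction, with a DNase I step, and the MessageAmp kit for labelling. The authors' processed table holds log2 intensities of 17754 probes; once sorted, its columns match each other to within 0.00036, as quantile normalisation gives. Limma is named in the submitters' processing notes; its version and the probe filter are unknown: not given in the sources used here.

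Of those probes, 15045 have 1 gene, 5 several and 2704 none. Of the 15045, 15026 took the RefSeq symbol of their Entrez identifier, whether or not it differed from the given name. Levels came from the intensities through neqc in limma 3.58.1 (R 4.3.3; offset 16), and the steps were tested on simulated data. Python 3.11.15, pandas 2.3.3 and numpy 2.4.6 were used. The number of arrays (3) limits the precision.

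With a single group no test between conditions was run. Named genes were all members, the first 3 measured genes of each of 10 other lists, and undetected measured genes where 5 or fewer. The remaining detected fibroblast markers and Polycomb target genes were named after their values were seen. The members and lists were chosen with earlier results of these data known. The alternatives changed the detection rule, probe choice, background correction, offset, normalisation and replicates.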

Additional observations from a re-analysis of the deposited data

How the results depend on the processing

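The count of PRC2 genes detected on all arrays was between 6 and 8 under every alternative run: 8 when 1 array sufficed, which added Ezh1, 6 when a gene counted only if all its probes were detected, which took out Aebp2, and 7 without each replicate in turn. The other Polycomb genes ran from 33 to 35 and the Polycomb target genes from 14 to 19. The count of detected PRC2 genes with a range over 1 log2 unit was 1 (Aebp2) and fell to 0 without normalisation between arrays, when Aebp2 ranged over 0.98. Leaving out each replicate gave 0 to 1, with 0 without replicate 1. Replicate 1 was farthest from the middle array in 4 to 6 genes; with a replicate left out that count has no value. Of 65 levels recomputed for single genes 20 moved by over 1 SD, and of 65 ranges 17 did, 7 of them without normalisation between arrays and 6 without replicate 1. Among the moved levels, 5 were without replicate 1 and 4 with the mean of all probes of a gene. With that mean, Ezh2 stood at 7.82, Mtf2 at 8, Aebp2 at 7.58 and Rbbp7 at 9.67. No paired analysis was possible because there is 1 group. Signal close to background limits Ezh1, Eed and Phf19, whose levels moved with the offset.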
